A study of Homo sapiens with 6 samples.

Results

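Tetraspanins, epithelial membrane proteins and the syntenin machinery of exosomes were followed in Caco-2 cells after SDC1 was silenced. The genes were chosen by symbol: every TSPAN gene with a number, the tetraspanins CD9, CD37, CD53, CD63, CD81, CD82, CD151, UPK1A and UPK1B, the EMP family, and SDCBP, SDCBP2, PDCD6IP, TSG101 and ARF6. A probe set counted where the platform annotation gave it exactly 1 symbol. This gave 36 genes with 75 probe sets, of 19775 genes and 54613 probe sets in all. The 3 symbols PMP22, SDCBP2 and PDCD6IP had no such probe set and were not analysed here.

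Caco-2 is an established human colorectal adenocarcinoma line whose cultures become a layer resembling small intestinal enterocytes. There were 3 arrays of cells given SDC1 siRNA and 3 of cells given negative control siRNA, and total RNA was hybridized to Affymetrix arrays. The labels give no sequence of either siRNA, no time after transfection and no statement that replicates came from separate cultures, so p-values measure only how these arrays vary, and that variation may be technical. The study looked for genes regulated by SDC1, the gene for the cell surface proteoglycan syndecan-1.

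Syndecans carry heparan sulfate outside the cell and end inside it in a tail that binds the PDZ domains of syntenin, the product of SDCBP. Syntenin joins syndecan to ALIX and through it to the ESCRT machinery, which buds vesicles into endosomes, and these vesicles leave the cell as exosomes. Tetraspanins are small membrane proteins that gather integrins and other partners into patches, and some of them, such as CD63, CD9 and CD81, are common exosome markers. The EMP proteins have a similar membrane layout but belong to the PMP22 family, related to the claudins.

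All values were log2 signals relative to the median of each probe set over the 6 arrays, so differences between arrays could be read and levels could not. The zero of a gene measured by 1 probe set lies midway between its middle pair of arrays. A rough brightness of each probe set (8 to 16, 4 to 8 or below 4 on the log2 scale) was recovered from the number steps in which its values were stored. Chance can place a probe set in too high a class, and a probe set whose arrays straddle a bound is given the lower one. Each gene was represented by the average of those of its probe sets that fell in its brightest class. Of the 36 genes, 15 were in the class from 8 to 16, 19 in the class from 4 to 8, and 2, TSPAN8 and TSPAN7, below 4.

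The target gene was lower in every SDC1 siRNA array: its relative log2 signal averaged -0.49 ± 0.14 with SDC1 siRNA and 0.36 ± 0.02 with control siRNA (SD, n = 3 each), a difference of -0.84 ± 0.08 (standard error; limma adjusted p = 0.0238 over all genes, and between 0.0615 and 0.326 with any 1 array left out). Control replicate 2 stood farthest from the rest: the median absolute log2 difference from any other array was 0.12 to 0.15 for it and 0.09 to 0.12 between the other arrays. Among Caco-2 markers, 13 of 15 were measured. Their summed relative log2 signals ran from -0.10 to 0.50 in SDC1 siRNA arrays and from -1.28 to 0.22 in control arrays, lowest in control replicate 2. EPCAM, CDH1, CDX1, KRT8, KRT18 and KRT19 were in the class from 8 to 16, VIL1, CDX2, LGALS4 and GPA33 in the class from 4 to 8, and KRT20, FABP1 and CDH17 below 4. The class from 8 to 16 also held the fibroblast markers COL1A1 and COL1A2, the endothelial marker VWF and the urothelial marker GATA3. It thus held 6 of 13 Caco-2 markers, 2 of 10 fibroblast, 1 of 8 endothelial, 1 of 6 urothelial and 0 of 8 leukocyte markers. A larger part of the intestinal list was therefore bright, but brightness was not limited to intestinal markers. The relative log2 signals of the 8 endothelial markers, summed, ran from 0.21 to 0.35 in SDC1 siRNA arrays and from -0.90 to -0.40 in control arrays, and their part in the differences below was not tested. Those of the 10 fibroblast markers ran from -0.34 to 0.11 in SDC1 siRNA arrays and from -0.43 to 0.91 in control arrays, sums in which opposite differences cancel. At an unadjusted p under 0.05 were 4 of the 10 (40.0%, beside 10.6% of all genes), and none passed. COL1A2 was higher at 0.37, and LUM, COL3A1 and PDGFRB were lower at -0.62, -0.29 and -0.24.

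Across the 36 genes the differences were small and mostly upward. The log2 difference was above 0 in 30 genes (83.3%), against 52.1% of all genes, with a median of 0.06 against 0.01 and a range from -0.16 to 0.51. None of the 36 passed a limma adjusted p of 0.05 over all genes, which 0.0253% of all genes did, and 7 reached an unadjusted p under 0.05. All 7 were higher with SDC1 siRNA, where 5.43% of all genes were higher and 5.19% lower at that unadjusted p. The groups did not overlap in 9 genes higher with SDC1 siRNA and in 1 lower, TSG101, where 8.26% and 8.47% of all genes did so in these directions. These counts describe genes that were chosen with results of the data known, and no test was made over them.

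**Figure D1:**
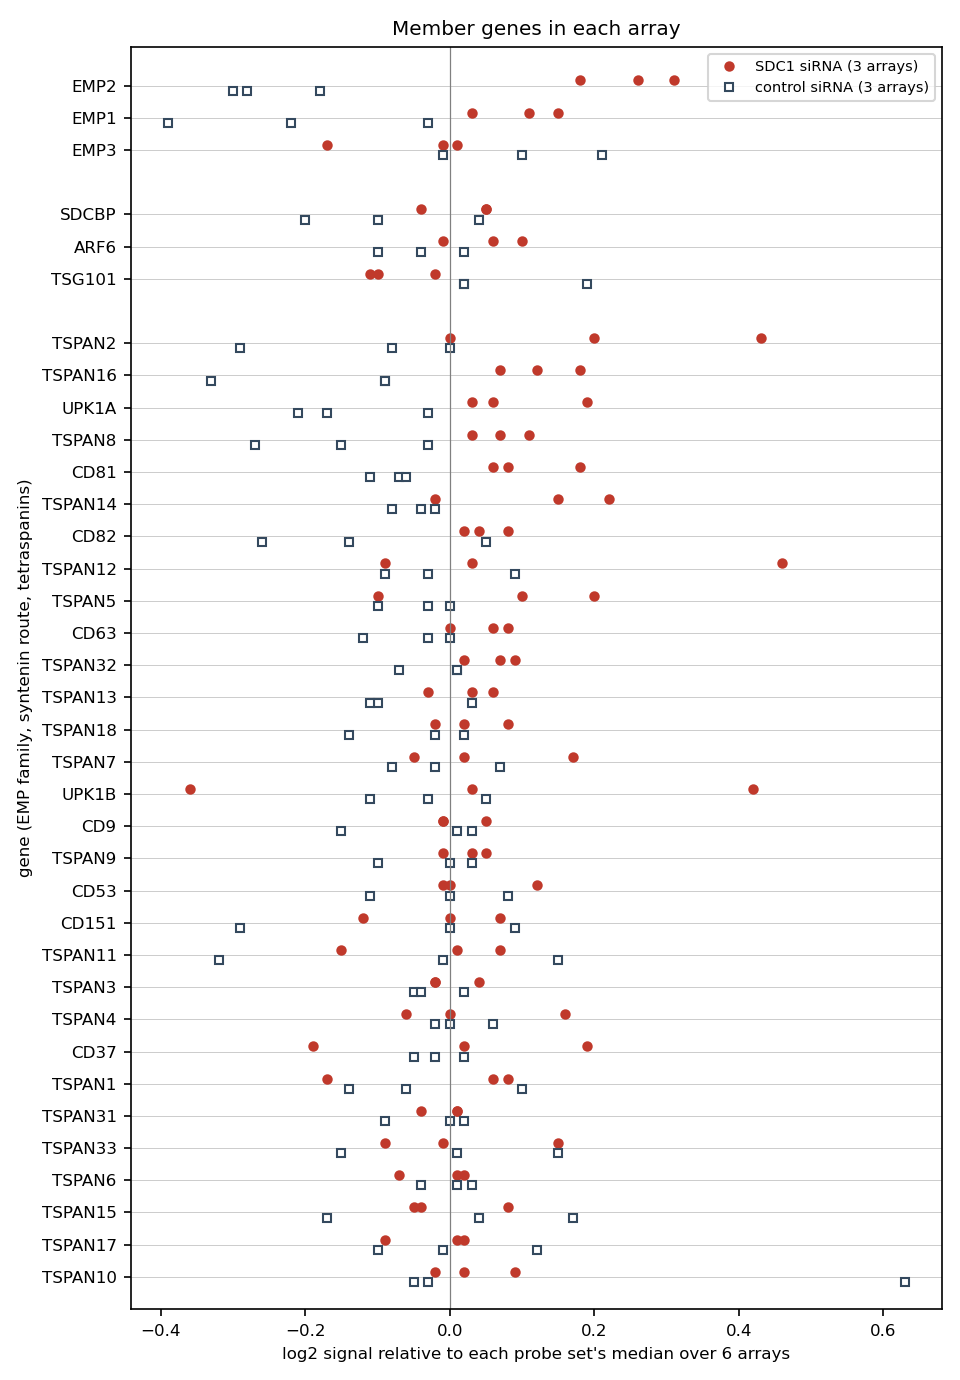
Relative log2 signal of the 36 genes in each array (x axis), 1 gene per row, with SDC1 siRNA arrays as filled circles above control siRNA arrays as open squares. EMP2 has the widest gap between the groups, and most tetraspanins lie within 0.2 of 0 with overlapping groups.

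The upward lean was not the same in every array. The median over the 36 genes was 0.01, 0.03 and 0.04 in SDC1 siRNA replicates 1, 2 and 3, and -0.03, -0.05 and -0.03 in control replicates 1, 2 and 3, while the median over all genes was between -0.01 and 0.01 in every array. Control replicate 2 was the lowest of the 6 arrays in 16 of the 36 genes and SDC1 siRNA replicate 3 the highest in 14. Without control replicate 2, 27 genes were above 0, 6 were at an unadjusted p under 0.05 and the groups, with fewer arrays to overlap, were separate in 16. Without SDC1 siRNA replicate 3, 26 were above 0 and 4 were at an unadjusted p under 0.05. The matching shares of all genes in these fits are not given here, so these counts show only how the 36 genes moved. In the class from 8 to 16, 13 of 15 genes were above 0 with a median of 0.09, beside 43.1% and a median of -0.01 over all 5977 genes of that class. In the class from 4 to 8, 15 of 19 were above 0 (78.9%) with a median of 0.05, beside 53.2% and 0.01 over its 9081 genes. At an unadjusted p under 0.05 were 26.7% of the 15, beside 9.59% of all genes of their class. Of the 19 it was 10.5%, beside 12.2%.

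**Figure D2:**
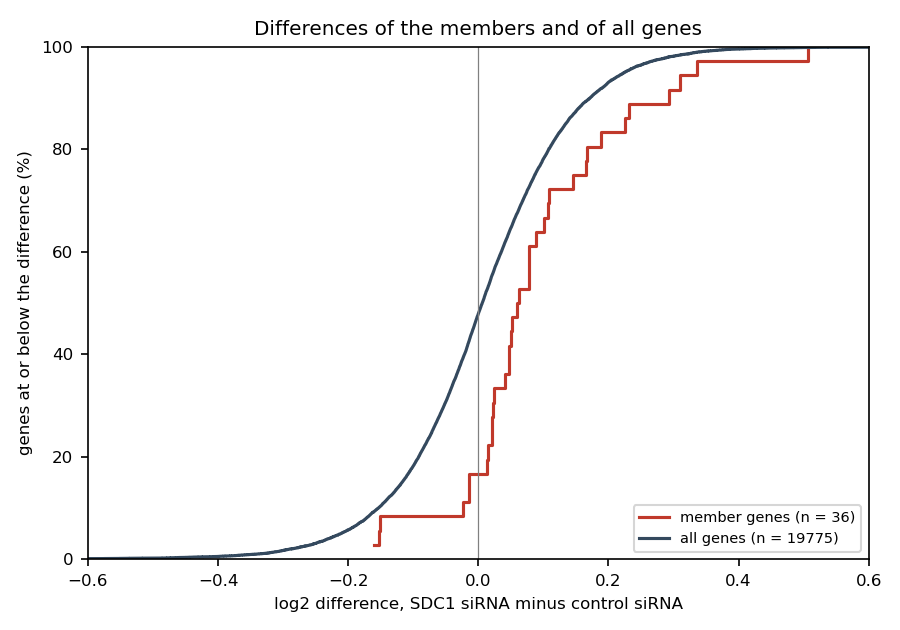
Cumulative share of genes (y axis, %) at or below each log2 difference, SDC1 siRNA minus control siRNA (x axis, shown from -0.6 to 0.6), for the 36 genes and for all 19775 genes. The curve of the 36 genes lies to the right over most of its length, with 16.7% of them at or below 0.

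The EMP family held the gene with the largest difference. EMP2 encodes epithelial membrane protein 2, a surface protein of epithelia that is known to act on integrins and caveolae. Its relative log2 signal was 0.18, 0.26 and 0.31 in the SDC1 siRNA arrays and -0.28, -0.30 and -0.18 in the control arrays. Every SDC1 siRNA array lay above every control array, with a gap wider than the spread within either group. The difference was 0.51 ± 0.07 (log2, standard error; 95% interval from 0.34 to 0.67), a 1.42-fold higher signal. Its limma adjusted p over all genes was 0.096, so EMP2 did not pass, although it ranked 16 of 19775 genes by p. The exact permutation p (two-sided) was 0.1, the smallest that 3 arrays against 3 can give. With array weights, which were themselves estimated from the data (0.47 for control replicate 2), EMP2 passed (limma adjusted p = 0.0389) as 1 of the 0.197% of genes called in that fit, and over its other alternatives the adjusted p lay between 0.0555 and 0.401.

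All 4 EMP2 probe sets pointed the same way. The 3 in the class from 8 to 16 gave log2 differences of 0.56 ± 0.08, 0.49 ± 0.09 and 0.47 ± 0.08 with separate groups in each. The 1 in the class from 4 to 8 gave 0.25 ± 0.14, and its groups overlapped because control replicate 3 was at 0.13 where the other control arrays were at -0.33 and -0.40. Tested singly among all probe sets, of which 0% passed, the EMP2 probe sets had limma adjusted p from 0.255 to 0.678.

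EMP1, epithelial membrane protein 1, was represented by 6 probe sets, more than any other of the genes. The probe set in its brightest class read 0.11, 0.03 and 0.15 in SDC1 siRNA arrays, and -0.22, -0.03 and -0.39 in control arrays. The groups were separate, but replicate 2 of each group lay close to the other group. Its log2 difference was 0.31 ± 0.10 (1.24-fold, limma adjusted p = 0.319) and did not pass. The 6 probe sets were all above 0, from 0.12 to 0.33, and 2 of them separated the groups. The other separate one, in the class from 4 to 8, read 0.25, 0.10 and 0.19 with SDC1 siRNA and -0.18, -0.19 and -0.10 with control siRNA.

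EMP3, the third member of the family, went the other way by a small amount. Its 1 probe set read -0.17, -0.01 and 0.01 in SDC1 siRNA arrays and 0.21, -0.01 and 0.10 in control arrays, with overlapping groups. The log2 difference was -0.16 ± 0.08 (limma adjusted p = 0.548).

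The promoters of the EMP genes, taken from RefSeq on GRCh38.p14 (250 bases before to 50 after the start site), are given because EMP2 and EMP1 were above 0 and EMP3 below. Capitals mark matches on either strand to TATAAA (the TATA box), GGGCGG (a box for Sp1-type factors), CCAAT (the element of that name) or CACCTG (an E-box that SNAI2 and other factors bind). EMP2 is on the minus strand at chr16:10580549-10580848, EMP1 on the plus strand at chr12:13196476-13196775 and EMP3 on the plus strand at chr19:48325302-48325601.
EMP2: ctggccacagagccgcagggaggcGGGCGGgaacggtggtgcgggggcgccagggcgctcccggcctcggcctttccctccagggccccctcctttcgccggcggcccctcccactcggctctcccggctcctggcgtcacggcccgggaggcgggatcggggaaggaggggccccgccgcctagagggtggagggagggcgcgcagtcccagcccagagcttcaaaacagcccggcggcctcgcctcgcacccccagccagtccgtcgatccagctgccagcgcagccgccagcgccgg
EMP1: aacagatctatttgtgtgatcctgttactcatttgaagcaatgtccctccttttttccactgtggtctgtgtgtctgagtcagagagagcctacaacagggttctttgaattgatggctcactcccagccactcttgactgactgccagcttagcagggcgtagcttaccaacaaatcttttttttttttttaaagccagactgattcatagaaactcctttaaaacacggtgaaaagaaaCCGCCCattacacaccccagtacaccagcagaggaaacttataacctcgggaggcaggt
EMP3: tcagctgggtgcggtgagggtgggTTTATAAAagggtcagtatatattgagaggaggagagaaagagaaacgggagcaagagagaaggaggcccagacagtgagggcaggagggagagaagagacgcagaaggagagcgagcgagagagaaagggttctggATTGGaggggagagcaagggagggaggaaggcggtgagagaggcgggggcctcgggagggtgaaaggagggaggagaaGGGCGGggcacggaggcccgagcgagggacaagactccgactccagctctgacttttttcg

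The window of EMP2 was 77.0% G and C, those of EMP1 and EMP3 44.3% and 59.3%, and the median over 27305 promoters was 58.3%. Each of the 3 held GGGCGG once, starting at base -226 in EMP2 (counted back from the start site), -9 in EMP1 (minus strand) and -11 in EMP3. GGGCGG was in 44.6% of all promoters and in 17 of the 27 matched to the 36 genes. EMP3 alone of the 3 held TATAAA (at -224 and, overlapping it on the minus strand, -226) and CCAAT (at -89, minus strand), which 12.0% and 35.7% of all promoters held. CACCTG was in 20.6% of all promoters and in 7 of the 27, and its letters were in none of these 3 windows.

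**Figure D3:**
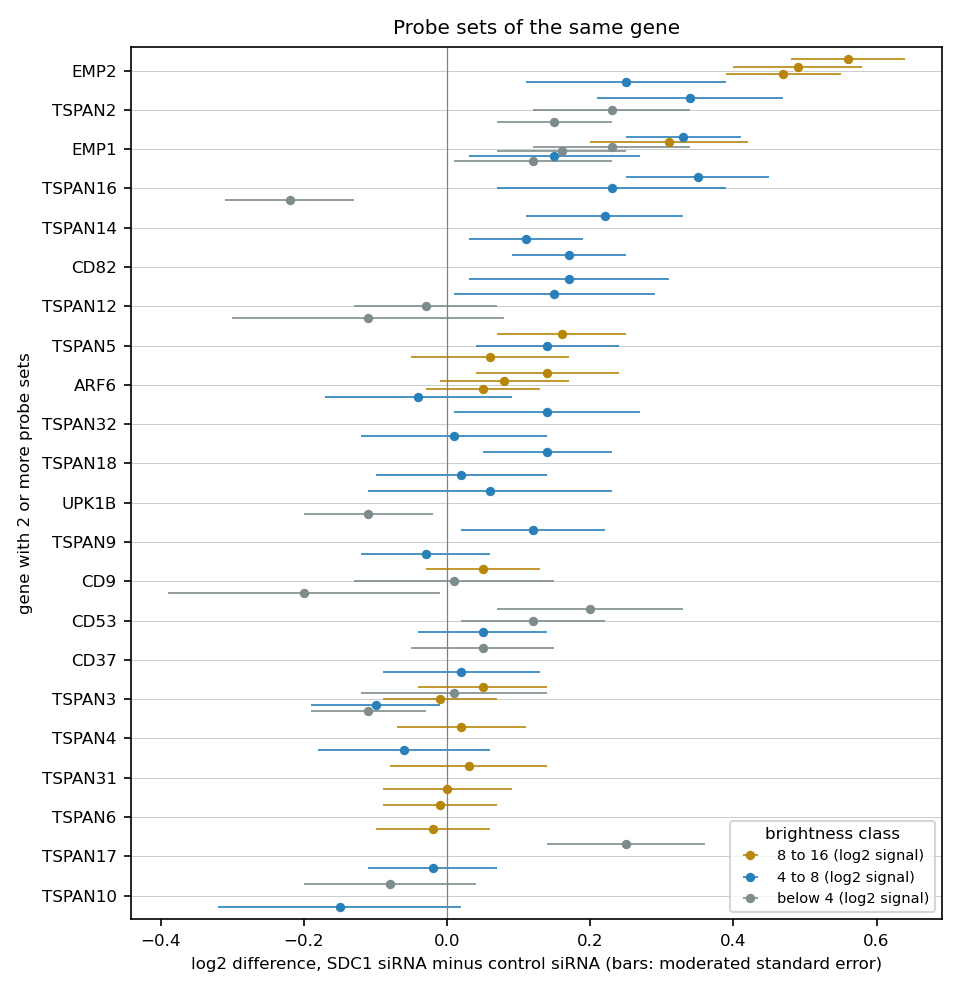
Log2 difference, SDC1 siRNA minus control siRNA (x axis, bars are moderated standard errors), of each probe set of the 22 genes measured by 2 or more, coloured by brightness class. The EMP2 and EMP1 probe sets are all above 0, whereas TSPAN16 has probe sets on both sides of it.

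The syntenin route showed no change that passed. SDCBP, which encodes syntenin, the adaptor that binds the syndecan tail, read 0.05, -0.04 and 0.05 in SDC1 siRNA arrays and -0.10, 0.04 and -0.20 in control arrays. Its groups overlapped, and the log2 difference was 0.11 ± 0.08 (95% interval from -0.08 to 0.29; limma adjusted p = 0.693). ARF6, a small GTPase that regulates the budding of syntenin vesicles, was at 0.09 ± 0.07 with overlapping groups (adjusted p = 0.703, limma), and its 4 probe sets lay between -0.04 and 0.14.

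TSG101, an ESCRT subunit that takes ubiquitinated cargo and binds ALIX, was the 1 gene with separate groups on the lower side. It read -0.10, -0.11 and -0.02 in SDC1 siRNA arrays and 0.02, 0.19 and 0.02 in control arrays. The gap between the groups was narrow, and the difference of -0.15 ± 0.07 did not pass (limma adjusted p = 0.517).

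The exosome markers CD9, CD63 and CD81 each had a log2 difference above 0, as did 52.1% of all genes. At an unadjusted p under 0.05 was 1 of the 3 (33.3%, beside 10.6% of all genes). CD81, which also serves as an entry factor for hepatitis C virus, read 0.06, 0.08 and 0.18 in SDC1 siRNA arrays and -0.07, -0.11 and -0.06 in control arrays. These groups were separate, with a log2 difference of 0.19 ± 0.07 (1.14-fold, limma adjusted p = 0.386). CD63, a tetraspanin of late endosomes that itself binds syntenin, read 0.08, 0.06 and 0.00 with SDC1 siRNA and 0.00, -0.12 and -0.03 with control siRNA. The lowest SDC1 siRNA array was just above the highest control array, and the difference of 0.10 ± 0.07 did not pass (limma adjusted p = 0.651). CD9 was at 0.05 ± 0.07 with overlapping groups. Its 2 probe sets below 4 gave 0.01 and -0.20.

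Of the other tetraspanins with CD symbols, none passed or separated the groups in its gene value. CD82, a suppressor of metastasis, was at 0.17 ± 0.09 (limma adjusted p = 0.557): it read 0.08, 0.02 and 0.04 with SDC1 siRNA and -0.26, -0.14 and 0.05 with control siRNA, so that 1 control array lay among the others. Of its 2 probe sets, both at 0.17, 1 separated the groups on the higher side. CD151, which binds laminin-receptor integrins, was at 0.05 ± 0.11. The leukocyte tetraspanins CD53 and CD37 were at 0.05 ± 0.08 and 0.02 ± 0.10. Of 10 leukocyte markers 8 were measured and none was in the class from 8 to 16. ITGB2, CD3E, CD14 and ITGAM were in the class from 4 to 8, and PTPRC, MS4A1, LYZ and HLA-DRA below 4. Of these markers 6 had a log2 difference above 0 and 2 below, and none passed. ITGB2 (0.18 ± 0.07) and CD3E (0.22 ± 0.10) were higher with SDC1 siRNA at an unadjusted p under 0.05. The summed relative log2 signal of these markers ran from -0.32 to 0.71 in SDC1 siRNA arrays and from -0.85 to 0.37 in control arrays.

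UPK1A and UPK1B are the tetraspanins of urothelial plaques. UPK1A read 0.19, 0.06 and 0.03 in SDC1 siRNA arrays and -0.03, -0.17 and -0.21 in control arrays, separate groups with a log2 difference of 0.23 ± 0.08 (1.17-fold, limma adjusted p = 0.357). Its 1 probe set was placed in the class from 8 to 16. UPK2, the plaque protein that pairs with UPK1A, was at -0.21 ± 0.10 and was looked at after its values were seen. UPK1B was at 0.06 ± 0.17, with SDC1 siRNA arrays spread from -0.36 to 0.42. The 6 urothelial markers summed to between -0.49 and 0.24 with SDC1 siRNA and between -0.27 and 0.37 with control siRNA, in relative log2 signal.

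Among the 21 TSPAN genes, 17 were above 0 (81.0%, beside 52.1% of all genes). An unadjusted p under 0.05 was reached by 3 (14.3%), all of them higher, beside 5.43% of all genes higher and 5.19% lower. TSPAN16 read 0.07, 0.18 and 0.12 in SDC1 siRNA arrays and -0.09, -0.33 and -0.09 in control arrays. The groups were separate, with control replicate 2 the lowest, and the log2 difference was 0.29 ± 0.09 (1.23-fold, limma adjusted p = 0.301). Its probe sets disagreed: 2 in the class from 4 to 8 gave 0.35 ± 0.10 and 0.23 ± 0.16, and 1 below 4 gave -0.22 ± 0.09 with separate groups on the lower side, which is the value of the gene when the probe set with the highest mean of deposited values stands for it. That probe set was the 1 of all 75 at an unadjusted p under 0.05 on the lower side, against 10 on the higher side, where 4.15% and 4.18% of all probe sets were lower and higher.

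TSPAN8, a tetraspanin of gastrointestinal epithelia and carcinomas, read 0.03, 0.07 and 0.11 in SDC1 siRNA arrays and -0.15, -0.03 and -0.27 in control arrays. The groups were separate and the log2 difference was 0.23 ± 0.08 (1.17-fold, limma adjusted p = 0.373), from 1 probe set below 4. TSPAN2, known from oligodendrocytes, read 0.20, 0.00 and 0.43 with SDC1 siRNA and -0.08, -0.29 and 0.00 with control siRNA. Its groups were separate by a very small margin and its difference was 0.34 ± 0.12 (1.26-fold, limma adjusted p = 0.381), with its 3 probe sets between 0.15 and 0.34. With 1 array left out it ran from 0.22, without SDC1 siRNA replicate 3, to 0.44.

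The TSPAN genes next in order by p did not reach an unadjusted p under 0.05. TSPAN32, a tetraspanin of blood cells, had separate groups with a small log2 difference of 0.08 ± 0.07. TSPAN13 was at 0.08 ± 0.07 and TSPAN18 at 0.08 ± 0.07, both with overlapping groups. TSPAN12, which strengthens Norrin signalling through a Frizzled receptor, was at 0.15 ± 0.14, with SDC1 siRNA replicate 3 at 0.46 and the other SDC1 siRNA arrays at -0.09 and 0.03. TSPAN10 was at -0.15 ± 0.17, with control replicate 2 at 0.63 and the other control arrays at -0.03 and -0.05. Leaving out control replicate 2 turned TSPAN10 to 0.07.

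A subgroup of tetraspanins, the TspanC8 group, escorts the sheddase ADAM10 to the cell surface. Its 6 members were split, 3 above 0 and 3 below, with a median log2 difference of 0.00. TSPAN14 was at 0.17 ± 0.08 and TSPAN5 at 0.11 ± 0.09, TSPAN10 was lowest, and TSPAN15, TSPAN17 and TSPAN33 lay between -0.02 and 0.01. ADAM10, looked at after its values were seen, was at -0.02 ± 0.07. The TSPAN genes beyond the 10 with the lowest p, these last 3 included, numbered 11, and their log2 differences ran from -0.02 to 0.06 with overlapping groups in each.

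**Figure D4:**
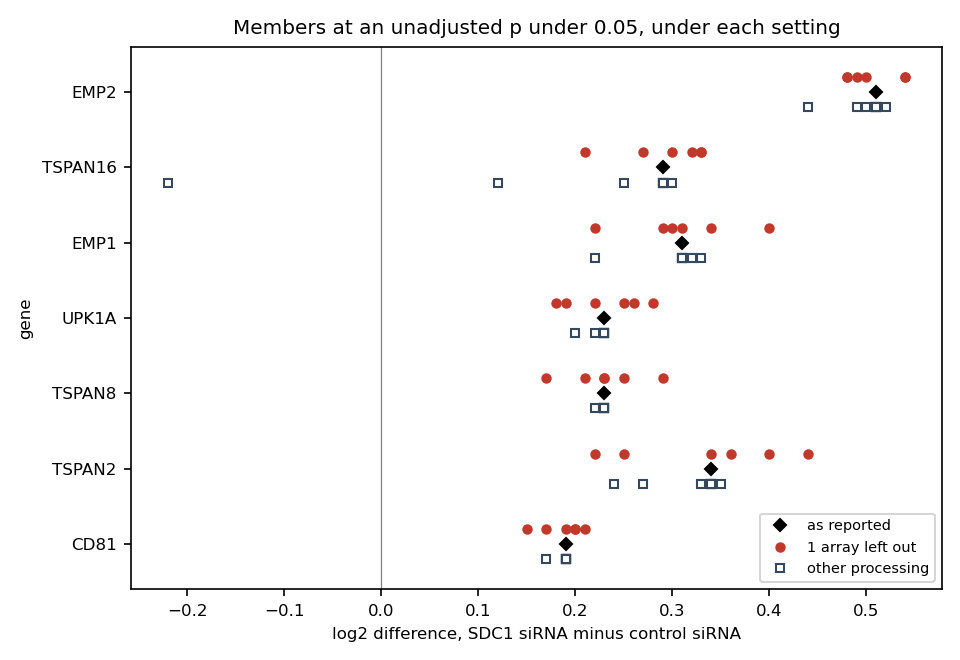
Log2 difference, SDC1 siRNA minus control siRNA (x axis), of the 7 genes at an unadjusted p under 0.05, as reported (diamonds), with each array left out (circles) and under the other processing choices (squares). TSPAN16 is the 1 gene of the 7 with a value below 0, from the highest mean of deposited values, a rule that does not pick by brightness.

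Beyond these genes, lists of related genes were described by their counts. Of 27 measured ESCRT subunits, 11 were above 0 and 16 below with a median log2 difference of -0.01, and none passed over all genes. By p the leading ones were the ESCRT-II subunit VPS36 at -0.30 ± 0.09, the ESCRT-I subunit VPS37D at 0.24 ± 0.09 and the ESCRT-I subunit MVB12A at -0.15 ± 0.07. Of 28 genes of exosome release and cargo, 17 were above 0 with a median of 0.04 and none passed. HPSE, the heparanase that trims heparan sulfate and stimulates syntenin exosomes, was at 0.47 ± 0.16 (limma adjusted p = 0.349). It read 0.07, 0.07 and 0.19 with SDC1 siRNA and -0.76, -0.25 and -0.07 with control siRNA, a wide spread in the control arrays, and it was at -0.08 without _x_at and _s_at probe sets, the types that can share sequence between transcripts. The lysosomal protein LAMP2 was at 0.17 ± 0.08 and SYTL4, a RAB27 effector in vesicle docking, at 0.16 ± 0.09. At an unadjusted p under 0.05 were 2 of the ESCRT subunits (7.41%) and 1 gene of exosome release (3.57%), both shares below the 10.6% of all genes.

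Of 10 syndecans and glypicans, SDC1 passed as the siRNA target, and the other genes did not, with 6 of the 10 above 0. At an unadjusted p under 0.05 were 3 of the 10 (30.0%, beside 10.6% of all genes): SDC1 itself, SDC4 and GPC3. SDC4, whose product also binds syntenin, was at 0.16 ± 0.07 and GPC3 at 0.19 ± 0.08.

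Of 25 measured partners of tetraspanins, 18 were above 0 (72.0%, beside 52.1% of all genes) with a median log2 difference of 0.09, beside 0.01 over all genes. At an unadjusted p under 0.05 were 7 (28.0%, beside 10.6% of all genes), 6 of them higher. None passed over all genes, and no test was made over the list. ITGA2, a collagen receptor subunit, was at 0.49 ± 0.08 (limma adjusted p = 0.103), and passed with array weights (adjusted p = 0.0439, limma). By the highest mean of deposited values, which in centred values does not mark the brightest probe set, ITGA2 was at 0.30 (adjusted p = 0.541, limma). PTGFRN and ITGA6 were then at 0.25 and 0.15. PTGFRN, an immunoglobulin-domain protein that binds CD9 and CD81 directly, was at 0.40 ± 0.10 (limma adjusted p = 0.21), and the uroplakin UPK3B at -0.25 ± 0.07. Of 6 tetraspanin or PMP22-type genes with other symbols, 1 was above 0: PERP was at 0.12 ± 0.09, TMEM47 at -0.24 ± 0.08 and NKG7 at -0.10 ± 0.10. TMEM47 was at -0.04 by the same highest-mean rule, and PERP at 0.02 without _x_at and _s_at probe sets. Of 10 genes placed beside EMP2 in epithelial cells, 8 were above 0 with a median of 0.02, and ITGA6, a laminin-binding integrin subunit, was at 0.31 ± 0.09, HIF1A at 0.19 ± 0.10 and VEGFA at -0.22 ± 0.11.

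**Figure D5:**
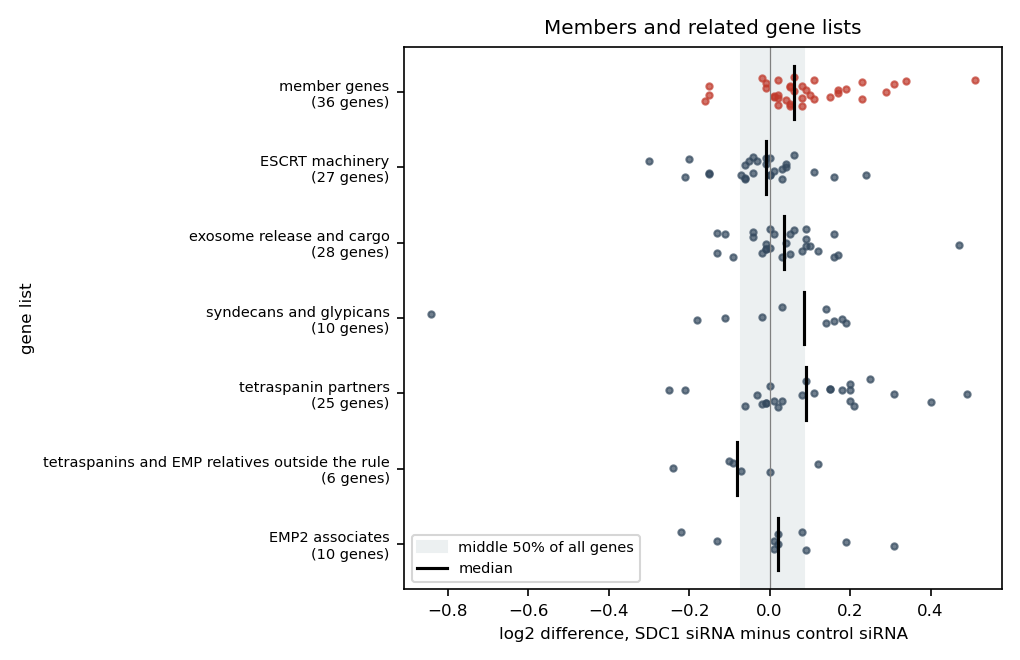
Log2 difference, SDC1 siRNA minus control siRNA (x axis), of each measured gene of the 36 and of 6 related lists (rows), with the median of each as a black bar and the middle 50% of all genes (-0.07 to 0.09) shaded. The tetraspanin partners have a median of 0.09 and the ESCRT subunits one of -0.01, and SDC1 is the point at -0.84.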

How the data were processed

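The authors deposited 1 table of log2 values, 54675 probe sets by 6 arrays, which the submitters' processing notes credit to RMA with no version. All 54675 probe sets had a median of 0 across the arrays (tolerance 1e-06), a centring that no source states. After 62 control probe sets were left out, 41091 had 1 symbol, 1801 several and 11721 none. Groups and replicate numbers came from the titles. Brightness classes came from the step of single-precision storage (tolerance 6e-08). Differences are SDC1 siRNA minus control siRNA, fitted with limma 3.58.1 in R 4.3.3 (lmFit, eBayes, group as the only term) over all genes, with Benjamini-Hochberg adjustment and a threshold of 0.05. Centred values hold no level, so a gene's probe sets could not be ranked by it, and those of its brightest class were averaged. Errors on differences are moderated standard errors. Depth does not apply to arrays: their number limits the precision. The fit was tested on simulated data, where it recovered 54% of planted log2 changes of 0.5 and 94% of those of 1. It also called 11 unchanged genes. The simulation planted many more changed genes than the 5 that passed here, most of them at 1 or more. That eases the adjusted threshold, so the 54% cannot be taken as the recovery of such changes in the real arrays. Changes smaller than 0.5 were not planted, so their recovery is not known. Members, gene lists and alternatives were chosen with earlier results of these data known. Named were SDC1, every member without a TSPAN symbol, the 10 TSPAN genes with the lowest p and up to 3 genes per list. ADAM10 and UPK2 were added after their values were seen. Any pair of arrays shared at most 52 equal gene values, and the labels name no batch. Alternatives were other normalizations, weights, a replicate block, each array left out, and other probe set rules.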

Additional observations from a re-analysis of the deposited data

How the results depend on the processing

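The count of 0 genes of the 36 past the adjusted threshold was 1 (EMP2) with array weights and 0 in every other alternative run, as was the count of 0 probe sets in all of its alternatives. Over all genes, 5 passed in the main fit, 0 with the replicate block and 0 or 1 with 1 array left out. Over all probe sets, between 0 and 3 passed in the alternatives. With so few passing in all, a count of 0 there says little about the 36 genes. The number of genes at an unadjusted p under 0.05 (7) ran from 4 to 6 with 1 array left out, lowest without SDC1 siRNA replicate 3. Counts above 0 and of separate groups were rerun by choice after seeing the data: 30 genes above 0 became 26 to 32 with 1 array left out and 23 with the highest mean of deposited values, and the 10 genes with separate groups became 11 to 16, highest without control replicate 2. Fewer arrays separate more easily in any gene. The matching shares of all genes, at an unadjusted p under 0.05 or with separate groups, are not given here for the alternatives. With the replicate number as a block 0 of the 36 passed, 6 were at an unadjusted p under 0.05 and EMP2 was at 0.51 (limma adjusted p = 0.264), while SDC1 lost its call. Same-numbered arrays had correlations of -0.01, -0.26 and -0.11 in their deviations from the group means, and differently numbered ones from -0.15 to 0.21. Deviations within a group are tied to each other, so these values cannot show whether the numbers pair the samples. SDC1 also lost its call after quantile normalization again (-0.90), with the highest mean (-0.83) and without any 1 array. Of 25 named members, 16 kept their direction in every alternative. In values centred on medians, the highest mean does not pick the brightest probe set. That rule turned ARF6 to -0.04, CD9 to -0.20, UPK1B to -0.11, TSPAN16 to -0.22 and HPSE to -0.08. For CD9, UPK1B and TSPAN16 it took a probe set below 4 in place of a brighter class. The mean of all probe sets turned CD9 to -0.04 and UPK1B to -0.03. Leaving out _x_at and _s_at probe sets turned TSPAN12 to -0.07, HPSE to -0.08 and SYTL4 to -0.02. With 1 array left out, CD151 ran from -0.06 to 0.13, CD37 from -0.07 to 0.12, CD53 from 0.00 to 0.09, CD9 from 0.00 to 0.08, UPK1B from -0.13 to 0.26, TSPAN12 from -0.02 to 0.26, TSPAN10 from -0.27 to 0.07 and ADAM10 from -0.05 to 0.03. Array weights put ADAM10 at 0.01, and averaging all its probe sets at 0.00. Several named genes that kept their direction moved by over 1.5 times: the highest mean put LAMP2 at 0.07, the mean of all probe sets put TSPAN16 at 0.12 and VEGFA at -0.12, and leaving out SDC1 siRNA replicate 3 put TSPAN14 at 0.11, TSPAN5 at 0.04, GPC3 at 0.12 and VPS37D at 0.15. The cause was not tested.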

Other observations

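Transcripts of antisense or pseudogene loci named after these genes had probe sets of their own. CD81-AS1 read 0.07, 0.35 and 0.16 in SDC1 siRNA arrays and -0.07, -0.27 and -0.09 in control arrays, separate groups with a log2 difference of 0.33 ± 0.10 (limma adjusted p = 0.479 as a single probe set), beside 0.19 ± 0.08 for the probe set of CD81. TSPAN16-AS1 was at 0.01 ± 0.14. Of 4 SDCBP2-AS1 probe sets, 3 were within 0.08 of 0 and 1, below 4 in brightness, was at -0.33 ± 0.15 with overlapping groups. The syntenin pseudogene SDCBPP2 was at 0.11 ± 0.10, beside 0.11 ± 0.09 for the probe set of SDCBP, both in the class from 8 to 16. Sequence shared between the pair was not analysed here.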
